A study of Mus musculus with 12 samples.

Results

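The genes described here are 10 mouse genes of Toll-like receptor (TLR) signalling and of the sensing of imiquimod: the receptors Tlr7, Tlr8, Tlr9, Tlr2 and Tlr4, the receptor chaperone Unc93b1, the co-receptor Cd14, the adaptor Myd88, the kinase Irak4 and the transcription factor Irf5. They were taken by gene symbol, and each of the 10 was found among the 55401 genes of the deposited tables. The RNA came from C57BL/6J dorsal skin taken on day 29, and its 12 libraries make up 4 groups with 3 libraries each. The CRS+IMQ group received chronic restrain stress (CRS) and imiquimod (IMQ), the IMQ group imiquimod alone, the CRS group restraint alone, and the control group no treatment. The dose of imiquimod, the sex of the animals and any pooling are not given in the sources used here.

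Toll-like receptors are sensors of microbial and nucleic acid ligands, and each signals from the membrane on which it sits. TLR7, TLR8 and TLR9 sit in endosomes and read nucleic acids, and UNC93B1 is the chaperone that carries them there from the endoplasmic reticulum. TLR2 and TLR4 sit at the cell surface and read bacterial lipoproteins and lipopolysaccharide, with CD14 as a co-receptor that hands over the ligand. All of these receptors signal through the adaptor MyD88, which assembles a complex with IRAK4, and IRF5 and NF-kB then turn on cytokine genes. Imiquimod is a small molecule agonist of TLR7 that gives a psoriasis-like inflammation when applied to mouse skin, and in skin most of these receptors are carried by macrophages, dendritic cells, neutrophils and B cells. Imiquimod also has targets outside the TLRs, among them the NLRP3 inflammasome, the quinone reductase NQO2 and adenosine receptors.

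The values are FPKM (fragments per kilobase of transcript, scaled to the mapped fragments of each library), a level per transcript length. Depth was read from the steps between low FPKM values, over a limited range of depths, and came to 19.15 to 21.1 M fragments per library (M, mega), and 13248 to 13753 genes per library reached 1 FPKM. Whether the libraries within a group are from different animals is not in the labels. For single-transcript genes of 500 or more estimated fragments, the coefficient of variation had a median of 3.54 percent in CRS+IMQ, 14.9 percent in IMQ, 4.64 percent in CRS and 16.35 percent in control, so the libraries of the stressed groups lay far closer to each other. A second fit therefore entered CRS and CRS+IMQ each as the mean of their 3 libraries, as 1 sample. In it the spread comes from the control libraries alone for CRS against control, from the IMQ libraries alone for CRS+IMQ against IMQ, and from both for CRS+IMQ against CRS and for the difference of the stress effects, and the averaged samples are assumed to vary like those libraries. Its adjusted p is given for the 10 genes where it changes a call, and its counts for the pathway lists. Among the IMQ libraries, the summed level of 10 neutrophil markers was 289 FPKM in library 1, 22.7 FPKM in library 2 and 149.8 FPKM in library 3. Markers of the tissue label also differed between the groups. Summed keratinocyte markers were 14020 to 14200 FPKM in CRS+IMQ, 5450 to 7919 FPKM in IMQ, 2309 to 2433 FPKM in CRS and 6468 to 10590 FPKM in control. Summed skeletal muscle markers were 9654 to 9904 FPKM in CRS+IMQ, 16310 to 22870 FPKM in IMQ, 32420 to 33430 FPKM in CRS and 8598 to 19260 FPKM in control. Summed markers of the growing (anagen) hair follicle were 7.54 to 9.83 FPKM in CRS+IMQ, 16.9, 658.6 and 276.7 FPKM in the IMQ libraries, 143.2 to 147.4 FPKM in CRS and 1.66 to 2.56 FPKM in control. Keratinocyte markers were thus lowest and muscle markers highest in CRS, and the part of these shifts in the changes of the 10 genes was not tested.

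The 10 genes were low in both singly treated groups and high in CRS+IMQ and in control. In CRS against control, 9 of 9 genes tested were lower at an adjusted p under 0.05 in limma, where 28.4 percent of all genes tested were called lower. In CRS+IMQ against IMQ, 9 of 10 were called higher, where 18.7 percent of all genes were. In IMQ against control, 6 of 9 were called lower, where 13.5 percent of all genes were. In CRS+IMQ against CRS, 10 of 10 were called higher, where 35.0 percent of all genes were. These tests kept genes with at least 1 FPKM in 3 libraries, and several of the genes reached that only through the group in which they were high, so these counts are partly set by the filter. In CRS against control, 5 of the 10 reached it in both groups and 3 through control alone. Tlr2 reached it in every control library and in CRS library 3 (1.10 FPKM), and Tlr8 did not reach it.

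With a filter of 0.1 FPKM, which every one of the 10 genes passed in every library, the counts were 10 of 10 lower in CRS against control, where 21.7 percent of all genes were called lower. They were 9 of 10 higher in CRS+IMQ against IMQ, where 14.8 percent of all genes were. They were 7 of 10 lower in IMQ against control (10.2 percent of all genes) and 10 of 10 higher in CRS+IMQ against CRS (27.0 percent). The median log2 changes of the 10 genes under this filter were -1.10, 1.03, -1.01 and 1.38 in these 4 comparisons, given in that order. The median log2 changes of all genes tested under this filter were -0.047, -0.044, 0.011 and 0.026 in the same order. The share of all calls that were higher depended on scaling: in CRS against control it was 35.0 percent in the values as deposited and 56.2 percent after quantile normalization. None of the 10 genes changed direction under either scaling alternative.

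**Figure D1:**
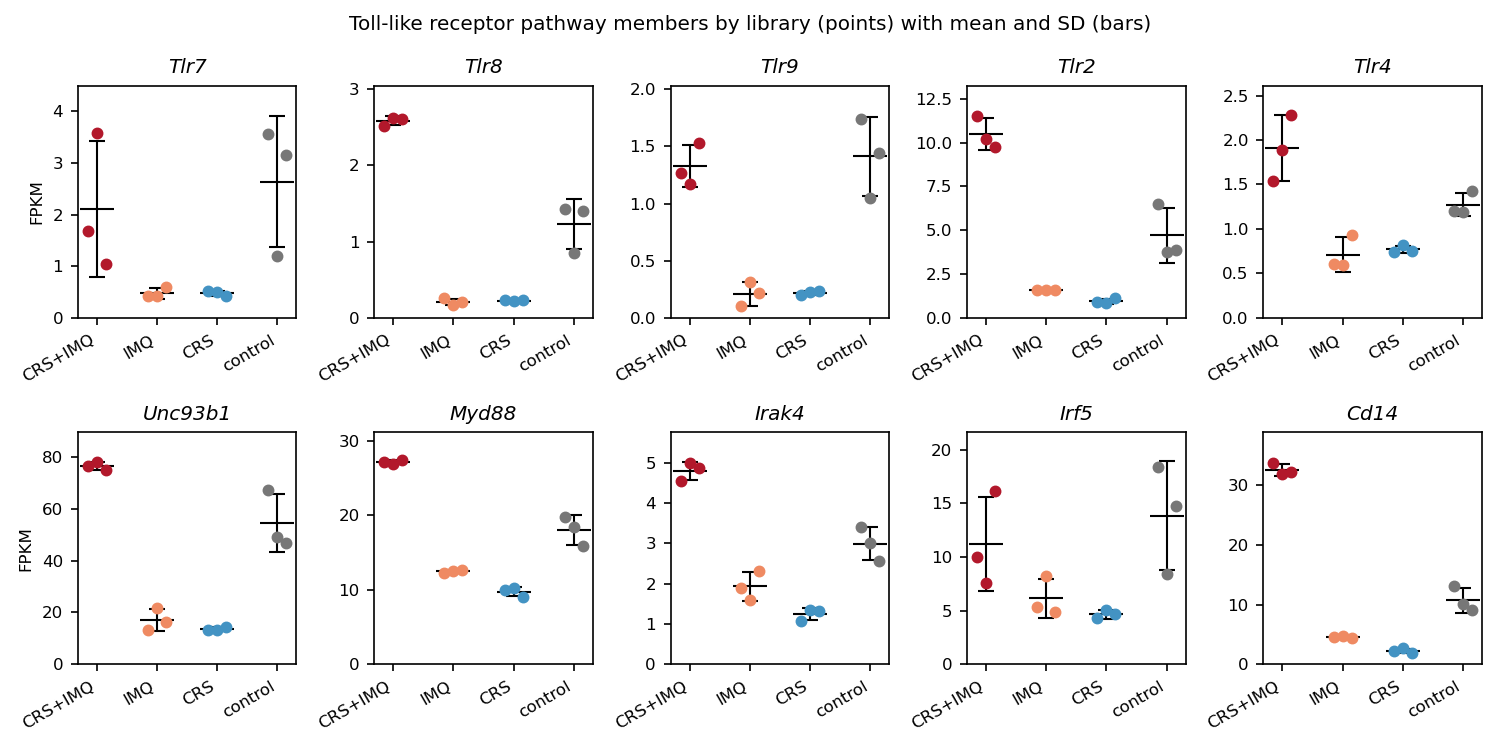
FPKM of the 10 genes (y axis, linear, from 0, own scale per gene) in each library of CRS+IMQ, IMQ, CRS and control (x axis), with points for libraries and bars for mean and SD (n = 3 each). Tlr8 sits at 2.52 to 2.62 FPKM in CRS+IMQ and at 0.255 FPKM or below in IMQ and CRS, and the Tlr7 and Irf5 points of CRS+IMQ and control are spread widely.

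Promoter windows from RefSeq (GRCm38.p6, 250 bases before to 50 bases after each start) were available for 6 of the 10 genes: Tlr8, Tlr9, Tlr2, Myd88, Irak4 and Irf5. They were searched on both strands for 5 short motifs because these genes moved together across the 4 groups. The motifs were the PU.1 motif GAGGAAGT, a core of the interferon-stimulated response element GAAANNGAA, a core of the kB motif GGGANNTTC, the glucocorticoid receptor motif ACANNNTGT and the AP-1 motif TGANTCA. The interferon-stimulated and kB cores were each shortened by 1 letter after a first search, in which the longer interferon-stimulated form had matched only the Myd88 window and the longer kB form none of the 6; the other 3 motifs were kept. Over all 32544 mouse windows of this length, 3.11 percent held the PU.1 motif, 8.53 percent the interferon-stimulated core, 3.94 percent the kB core, 6.83 percent the glucocorticoid receptor motif and 7.79 percent the AP-1 motif. Among the 6 windows, 1 held the PU.1 motif, 2 the interferon-stimulated core, 1 the kB core and 1 the AP-1 motif, and 0 held the glucocorticoid receptor motif. The 4 windows with a match are printed with the match in capitals, 5′ to 3′ on the strand of the gene. They belong to both kinds of receptor and to the shared adaptor. The Tlr9 window lies at chr9:106222348-106222647 (plus strand), the Tlr8 window at chrX:167264280-167264579 (minus strand), the Tlr2 window at chr3:83841559-83841858 (minus strand) and the Myd88 window at chr9:119339969-119340268 (minus strand).
Tlr9: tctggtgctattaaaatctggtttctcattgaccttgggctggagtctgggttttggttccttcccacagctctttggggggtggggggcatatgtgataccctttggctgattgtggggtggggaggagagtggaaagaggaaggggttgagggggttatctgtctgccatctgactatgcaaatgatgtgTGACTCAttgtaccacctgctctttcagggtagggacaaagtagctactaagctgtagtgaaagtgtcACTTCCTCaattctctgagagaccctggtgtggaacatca
Tlr8: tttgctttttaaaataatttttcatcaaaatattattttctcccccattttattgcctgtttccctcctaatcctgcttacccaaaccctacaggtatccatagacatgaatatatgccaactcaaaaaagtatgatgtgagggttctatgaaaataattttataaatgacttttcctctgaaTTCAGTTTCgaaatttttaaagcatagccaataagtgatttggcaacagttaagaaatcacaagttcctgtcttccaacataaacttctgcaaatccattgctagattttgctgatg
Tlr2: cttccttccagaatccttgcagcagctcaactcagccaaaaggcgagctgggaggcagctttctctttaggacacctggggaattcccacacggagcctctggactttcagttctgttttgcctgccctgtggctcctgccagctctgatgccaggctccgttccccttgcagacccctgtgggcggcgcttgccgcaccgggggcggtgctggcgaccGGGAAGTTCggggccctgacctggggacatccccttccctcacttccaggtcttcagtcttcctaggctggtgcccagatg
Myd88: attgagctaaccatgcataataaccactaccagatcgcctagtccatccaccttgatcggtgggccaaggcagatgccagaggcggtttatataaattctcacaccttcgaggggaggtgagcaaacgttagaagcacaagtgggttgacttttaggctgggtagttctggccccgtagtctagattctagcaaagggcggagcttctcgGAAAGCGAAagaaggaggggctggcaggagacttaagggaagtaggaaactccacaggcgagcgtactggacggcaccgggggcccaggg
In Tlr9, the PU.1 match ACTTCCTC (the reverse complement of the motif) lay 11 to 18 bases after the start and the AP-1 match TGACTCA 58 to 52 bases before it. The interferon-stimulated core was read as TTCAGTTTC (its reverse complement) 67 to 59 bases before the start of Tlr8 and as GAAAGCGAA 40 to 32 bases before that of Myd88. The kB core was read as GGGAAGTTC 31 to 23 bases before the start of Tlr2. Other forms of the kB motif were not searched. The stretch ggggaattccc, further from the start in the Tlr2 window, is such a form that the searched letters do not cover, and it was left unmarked. The capitals in this window mark only a match to the shortened core and do not rank it above that stretch. No pair of these matches overlapped. The RefSeq starts used for Tlr2 and Myd88 lie inside the gene spans given with their values, and which start is used in skin was not tested. A match describes the letters of the window, and binding was not measured.

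Tlr7 encodes the receptor that imiquimod engages in mice (ENSMUSG00000044583, mm10 chromosome X, 167304929 to 167330558, minus strand). It had 1.68, 3.58 and 1.05 FPKM in the CRS+IMQ libraries, 0.412, 0.416 and 0.589 FPKM in the IMQ libraries, 0.512, 0.494 and 0.416 FPKM in the CRS libraries and 3.56, 1.19 and 3.16 FPKM in the control libraries. All CRS and IMQ libraries lay below all CRS+IMQ and control libraries, and the CRS+IMQ and control libraries overlapped. The mean was 0.474 ± 0.0508 FPKM in CRS and 2.64 ± 1.27 FPKM in control (SD, n = 3 each), 5.56-fold lower in CRS, with a log2 change of -1.23 ± 0.28 (SE) that passed in limma (adjusted p = 0.0139). It was 2.10 ± 1.32 FPKM in CRS+IMQ and 0.472 ± 0.101 FPKM in IMQ, 4.45-fold higher in CRS+IMQ (log2 change 0.99, adjusted p = 0.0398 in limma). Tlr7 was also called lower in IMQ than in control and higher in CRS+IMQ than in CRS (limma adjusted p = 0.0247 and 0.0283, the second 0.237 with stressed groups averaged).

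The Tlr7 calls were the least firm of the 10 genes. With each stressed group as 1 sample, the adjusted p was 0.188 for CRS against control and 0.0364 for CRS+IMQ against IMQ in limma. The call of CRS+IMQ against IMQ was lost without any 1 of the IMQ libraries (limma adjusted p = 0.0755 without replicate 1, 0.0844 without replicate 2 and 0.0898 without replicate 3), and that of CRS against control without CRS replicate 3 (0.0503). In CRS+IMQ its coefficient of variation was 62.7 percent, larger than that of 97.7 percent of 2506 genes with at least 5 transcripts and a level within 2-fold of it, while Tlr8 in the same libraries varied by 2.22 percent. Averaging CRS+IMQ leaves this spread out and puts that of the IMQ libraries (21.3 percent for Tlr7) in its place. For Tlr7 the averaged fit of CRS+IMQ against IMQ is therefore not a stricter test, also where its pass is counted below. The deposited tables list 6 Tlr7 transcripts of 261 to 3897 bases, and how reads were divided among them was not tested.

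Tlr8, a neighbour of Tlr7 on chromosome X (ENSMUSG00000040522, 167242696 to 167264329, minus strand), encodes a related endosomal RNA sensor. It had 2.52, 2.62 and 2.61 FPKM in CRS+IMQ, 0.255, 0.172 and 0.203 FPKM in IMQ, 0.227, 0.217 and 0.229 FPKM in CRS and 1.43, 0.848 and 1.41 FPKM in control. The CRS+IMQ libraries lay above every other library, control lay between, and CRS and IMQ overlapped at the bottom. Tlr8 averaged 2.58 ± 0.0573 FPKM in CRS+IMQ and 0.210 ± 0.0419 FPKM in IMQ (SD, n = 3 each), a 12.3-fold difference that is the largest ratio of means among the 10 genes in this comparison (log2 change of FPKM + 1 of 1.57, limma adjusted p = 4.71e-05, or 0.0179 with stressed groups averaged). It averaged 0.224 ± 0.00671 FPKM in CRS and 1.23 ± 0.330 FPKM in control, 5.48-fold lower in CRS. Tlr8 did not reach the 1 FPKM filter in that comparison, and under the 0.1 FPKM filter its log2 change was -0.85 (limma adjusted p = 0.0036).

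Tlr9 (ENSMUSG00000045322, chromosome 9, 106222598 to 106226883, plus strand) encodes the endosomal sensor of unmethylated CpG DNA and has 1 transcript in the tables. Its levels were 1.27, 1.18 and 1.53 FPKM in CRS+IMQ, 0.103, 0.311 and 0.216 FPKM in IMQ, 0.200, 0.224 and 0.232 FPKM in CRS and 1.74, 1.05 and 1.45 FPKM in control. At the estimated depth these levels correspond to 7.01 to 22.5 fragments per library in IMQ and 14.0 to 16.6 in CRS, against 83.8 to 110.4 in CRS+IMQ and 75.6 to 122.2 in control. Both stressed comparisons passed in limma, with a log2 change of -0.98 in CRS against control (adjusted p = 0.00155) and of 0.94 in CRS+IMQ against IMQ (adjusted p = 0.00103). With stressed groups averaged the adjusted p-values were 0.0753 and 0.0515. The CRS+IMQ and control libraries of Tlr9 overlapped, unlike those of Tlr8.

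Tlr2 (ENSMUSG00000027995, chromosome 3, 83836272 to 83841767, minus strand), the surface receptor for lipoproteins, had 11.5, 10.2 and 9.72 FPKM in CRS+IMQ, 1.57, 1.61 and 1.61 FPKM in IMQ, 0.875, 0.826 and 1.10 FPKM in CRS and 6.49, 3.77 and 3.85 FPKM in control. The 4 groups did not overlap, and their order from high to low was CRS+IMQ, control, IMQ and CRS. Tlr2 was 6.56-fold higher in CRS+IMQ (10.5 ± 0.912 FPKM) than in IMQ (1.60 ± 0.0214 FPKM; SD, n = 3 each), with a log2 change of 2.14 ± 0.09 (SE, limma adjusted p = 2.92e-05). It was 5.04-fold lower in CRS (0.933 ± 0.146 FPKM) than in control (4.70 ± 1.55 FPKM), with a log2 change of -1.53 (limma adjusted p = 0.0016, or 0.0700 with stressed groups averaged). It was 2.94-fold lower in IMQ than in control (limma adjusted p = 0.00974).

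Tlr4 (ENSMUSG00000039005, chromosome 4, 66827584 to 66930284, plus strand), the lipopolysaccharide receptor, had the smallest log2 changes of the 5 receptors. It had 1.54, 1.89 and 2.28 FPKM in CRS+IMQ, 0.604, 0.594 and 0.935 FPKM in IMQ, 0.742, 0.816 and 0.753 FPKM in CRS and 1.20, 1.20 and 1.43 FPKM in control. CRS+IMQ lay above control and control above both singly treated groups, with no overlap. The difference between CRS+IMQ and IMQ was 2.68-fold (log2 0.76, limma adjusted p = 0.00668, or 0.103 with stressed groups averaged). The difference between CRS and control was 1.65-fold (log2 -0.36, limma adjusted p = 0.0142), and this call was lost after quantile normalization (log2 -0.24, adjusted p = 0.0525), without CRS replicate 1 or 3 and with stressed groups averaged (0.204). IMQ against control did not pass (log2 -0.41, limma adjusted p = 0.0607).

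Cd14 (ENSMUSG00000051439, chromosome 18, 36725067 to 36726798, minus strand), the co-receptor that binds lipopolysaccharide, had 33.7, 31.9 and 32.1 FPKM in CRS+IMQ, 4.48, 4.74 and 4.43 FPKM in IMQ, 2.14, 2.63 and 1.91 FPKM in CRS and 13.04, 10.03 and 9.10 FPKM in control. Its groups were ordered as those of Tlr2 and did not overlap. Cd14 averaged 32.6 ± 0.984 FPKM in CRS+IMQ and 4.55 ± 0.166 FPKM in IMQ (SD, n = 3 each), 7.17-fold higher in CRS+IMQ (log2 2.60 ± 0.07 SE, limma adjusted p = 1.12e-05). It averaged 2.23 ± 0.371 FPKM in CRS and 10.7 ± 2.06 FPKM in control, 4.81-fold lower in CRS (log2 -1.85, limma adjusted p = 0.000399), a call that held with stressed groups averaged (0.0381). Against CRS, the CRS+IMQ level was 14.6-fold higher (log2 3.39, limma adjusted p = 9.36e-07), the largest ratio of means of the 10 genes in that comparison.

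Unc93b1 (ENSMUSG00000036908, chromosome 19, 3935186 to 3949340, plus strand), the chaperone of the endosomal receptors, was the most abundant of the 10 transcripts in every group. It had 76.4, 78.0 and 75.1 FPKM in CRS+IMQ, 13.3, 21.6 and 16.4 FPKM in IMQ, 13.3, 13.1 and 14.4 FPKM in CRS and 67.2, 49.1 and 46.7 FPKM in control. CRS+IMQ lay above control, and both lay above CRS and IMQ, which overlapped. Unc93b1 was 3.99-fold lower in CRS (13.6 ± 0.718 FPKM) than in control (54.3 ± 11.2 FPKM; SD, n = 3 each), with a log2 change of -1.90 (limma adjusted p = 0.000356, or 0.0417 with stressed groups averaged). It was 4.48-fold higher in CRS+IMQ than in IMQ (log2 2.12, limma adjusted p = 0.0003, or 0.0412 with stressed groups averaged) and 3.18-fold lower in IMQ than in control (log2 -1.62, adjusted p = 0.00367).

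The ratio of Unc93b1 to the summed level of Tlr7, Tlr8 and Tlr9 describes chaperone against client transcripts. It was 14.0, 10.6 and 14.5 in the CRS+IMQ libraries, 17.2, 24.0 and 16.3 in the IMQ libraries, 14.2, 14.0 and 16.5 in the CRS libraries and 9.98, 15.9 and 7.77 in the control libraries. The IMQ ratios lay above those of CRS+IMQ with no overlap, and the CRS and control ratios overlapped. The highest of the 12 ratios was 3.09 times the lowest, against 5.95 times for the FPKM of Unc93b1 itself, and the ratio was not tested. With Tlr3, Tlr11, Tlr12 and Tlr13 also in the sum, the ratio was 6.49, 6.20 and 6.84 in CRS+IMQ and 6.89, 10.71 and 6.99 in IMQ. On this wider sum the gap between IMQ and CRS+IMQ was narrow, so it depends on the receptors summed.

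Myd88 (ENSMUSG00000032508, chromosome 9, 119335934 to 119341411, minus strand), the adaptor, had 27.1, 26.9 and 27.4 FPKM in CRS+IMQ, 12.3, 12.5 and 12.7 FPKM in IMQ, 9.94, 10.2 and 9.06 FPKM in CRS and 19.7, 18.5 and 15.9 FPKM in control. The 4 groups did not overlap, in the same order as for Tlr2 and Cd14. The difference between CRS+IMQ and IMQ was 2.17-fold (log2 1.06, limma adjusted p = 9.98e-05) and that between CRS and control 1.85-fold (log2 -0.82, limma adjusted p = 0.00153, or 0.0802 with stressed groups averaged). IMQ was 1.44-fold lower than control (limma adjusted p = 0.0320), a call that was lost without control replicate 1 or 2, without any 1 IMQ library and with the replicate number as a block.

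Irak4 (ENSMUSG00000059883, chromosome 15, 94543643 to 94581815, plus strand), the first kinase of the MyD88 complex, had 4.55, 4.997 and 4.87 FPKM in CRS+IMQ, 1.88, 1.60 and 2.32 FPKM in IMQ, 1.08, 1.34 and 1.32 FPKM in CRS and 3.40, 3.02 and 2.57 FPKM in control. The 4 groups were ordered as for Myd88 and did not overlap. Irak4 was 2.48-fold higher in CRS+IMQ than in IMQ (log2 0.99, limma adjusted p = 0.00113, or 0.0818 with stressed groups averaged) and 2.40-fold lower in CRS than in control (log2 -0.83, limma adjusted p = 0.00172, or 0.0721 with stressed groups averaged). The 1.55-fold difference between IMQ and control did not pass (limma adjusted p = 0.0695).

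Irf5 (ENSMUSG00000029771, chromosome 6, 29526625 to 29541871, plus strand), the transcription factor that acts downstream of MyD88, had 10.01, 7.59 and 16.1 FPKM in CRS+IMQ, 5.37, 8.22 and 4.83 FPKM in IMQ, 4.26, 5.07 and 4.64 FPKM in CRS and 18.4, 8.41 and 14.7 FPKM in control. It was the only 1 of the 10 genes whose CRS+IMQ and IMQ libraries overlapped, since CRS+IMQ library 2 lay below IMQ library 2. The difference between CRS+IMQ (11.2 ± 4.39 FPKM) and IMQ (6.14 ± 1.82 FPKM; SD, n = 3 each) did not pass (log2 0.75 ± 0.30 SE, limma adjusted p = 0.0972). Irf5 was 2.97-fold lower in CRS than in control (log2 -1.33, limma adjusted p = 0.00848, or 0.152 with stressed groups averaged). Like Tlr7, it has 6 transcripts in the tables and a wide spread, with a coefficient of variation of 39.1 percent in CRS+IMQ and 36.5 percent in control against 8.64 percent in CRS.

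**Figure D2:**
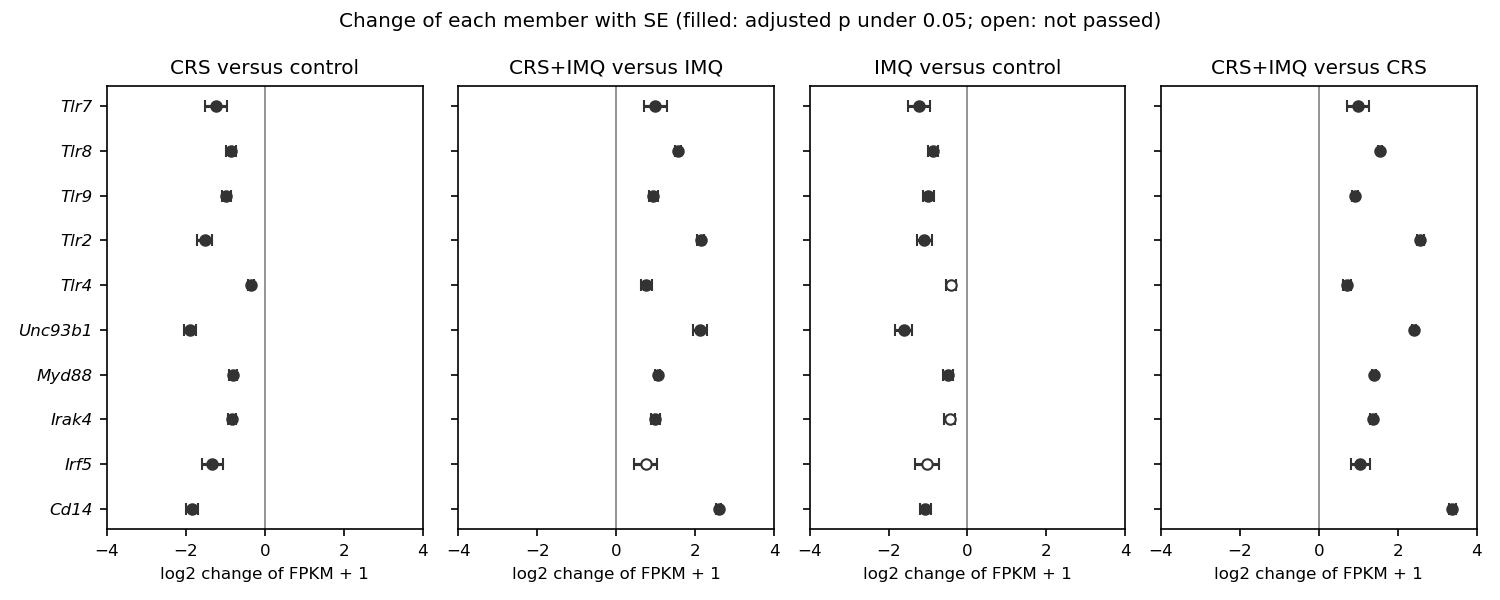
Log2 change of FPKM + 1 with SE (x axis) for each of the 10 genes (y axis) in 4 panels (CRS versus control, CRS+IMQ versus IMQ, IMQ versus control, then CRS+IMQ versus CRS); filled points passed an adjusted p of 0.05 in limma and open points did not. All points are drawn from the fit with the 0.1 FPKM filter, which includes Tlr8 where it did not reach 1 FPKM. Points lie left of 0 in both panels against control and right of 0 in the other 2. In CRS versus control they run from -0.36 for Tlr4 to -1.90 for Unc93b1.

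The libraries of CRS and control did not overlap for any of the 10 genes, where 36.0 percent of all genes tested were lower in CRS with no overlap. CRS+IMQ and IMQ did not overlap for 9 genes (24.7 percent of all genes, higher), IMQ and control for 10 (23.0 percent, lower) and CRS+IMQ and CRS for 10 (38.8 percent, higher). CRS against control and IMQ against control share the control libraries, so their likeness is not a separate result. The deposited FPKM come in 2 tables, one with the control and CRS libraries and one with those given imiquimod. In IMQ against control and in CRS+IMQ against CRS, an effect of the table and one of imiquimod therefore cannot be told apart. In CRS+IMQ against CRS the log2 changes ran from 0.71 for Tlr4 and 0.93 for Tlr9 to 2.57 for Tlr2 and 3.39 for Cd14. With stressed groups averaged, 6 of the 10 genes passed in that comparison (7.03 percent of all genes were called higher), and Tlr7, Tlr9 (limma adjusted p = 0.0693), Tlr4 (0.0908) and Irf5 (0.257) did not. In that fit 6 of 10 passed in CRS+IMQ against IMQ (4.80 percent of all genes, higher) and 2 of 9 in CRS against control, Unc93b1 and Cd14 (4.34 percent of all genes, lower).

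The effect of CRS in skin given imiquimod differed from its effect in skin that was not, for each of the 10 genes. The difference of the 2 effects, fitted over all 12 libraries in limma, was positive and passed for 10 of 10, where 28.1 percent of all genes were called higher. The scale of FPKM + 1 understates changes of low genes. On this scale the difference was largest for Cd14 (log2 4.45 ± 0.17 SE, limma adjusted p = 2.4e-08), Unc93b1 (log2 4.03, adjusted p = 3.52e-07) and Tlr2 (log2 3.67, adjusted p = 4e-07). The smallest on this scale was that of Tlr4 (log2 1.12 ± 0.16 SE, limma adjusted p = 0.000195). By ratio of means Tlr8 changed more than Unc93b1 in both stress comparisons. With imiquimod the ratios were 12.3-fold for Tlr8 and 4.48-fold for Unc93b1, and without it 5.48-fold and 3.99-fold. The order of the genes thus depends on the scale. With stressed groups averaged, 9 of 10 passed (12.9 percent of all genes were called higher), and Irf5 did not (limma adjusted p = 0.0585).

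CRS+IMQ set beside control shows which transcripts stood above their level in untreated skin; this comparison was not tested, and since it sets the 2 deposited tables against each other, an effect of the table cannot be told apart from the treatment. Cd14 was 3.04 times its control mean in CRS+IMQ, Tlr2 2.23 times, Tlr8 2.10 times, Irak4 1.60 times, Myd88 1.51 times, Tlr4 1.497 times and Unc93b1 1.41 times, each with no overlap between the libraries. Tlr7 was at 0.797, Tlr9 at 0.938 and Irf5 at 0.811 times the control mean, with overlapping libraries.

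The order of levels differed between the groups. In CRS+IMQ it ran from Unc93b1 (76.5 FPKM) over Cd14 (32.6 FPKM) and Myd88 (27.1 FPKM) to Irf5 and Tlr2, which overlapped (11.2 and 10.5 FPKM), then Irak4 (4.81 FPKM). Tlr8, Tlr7 and Tlr4 followed at 2.58, 2.10 and 1.91 FPKM, each overlapping its neighbour, and Tlr9 was lowest at 1.33 FPKM. In IMQ and in CRS, Myd88 and Irf5 both stood above Cd14, and Tlr8 and Tlr9 were lowest and overlapped, at 0.210 FPKM each in IMQ and at 0.224 and 0.219 FPKM in CRS. In control, Myd88, Irf5 and Cd14 came after Unc93b1 at 18.0, 13.9 and 10.7 FPKM with overlapping neighbours, and the 5 transcripts from Irak4 to Tlr8 each overlapped the next.

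Macrophage markers were low and high in the same groups as the 10 genes. The summed level of 12 macrophage markers was 1468 to 1510 FPKM in CRS+IMQ, 201 to 317.5 FPKM in IMQ, 225.3 to 239.1 FPKM in CRS and 1068 to 1523 FPKM in control. That is 5.79-fold higher in CRS+IMQ than in IMQ and 5.29-fold lower in CRS than in control, and 12 of 12 markers passed in each of these 2 comparisons (11 and 10 with stressed groups averaged); none was at 0 in any group. In bulk tissue, fewer cells of a type and less RNA per cell cannot be told apart. The summed level of 10 neutrophil markers was 2770 to 2899 FPKM in CRS+IMQ, 22.7 to 289 FPKM in IMQ, 40.3 to 55.1 FPKM in CRS and 14.85 to 19.9 FPKM in control, where the defining marker Ly6g was at 0 in every library. All 10 neutrophil markers were higher in CRS+IMQ than in IMQ, where 18.7 percent of all genes were. In CRS against control 5 of 7 tested were higher and 2 lower (15.3 and 28.4 percent of all genes), so these markers did not follow the 10 genes there. Ly6g, Retnlg, Mmp8 and Mmp9 reached 1 FPKM in no IMQ library. Retnlg, Ngp and Camp reached it in no control library, so these counts are partly set by the filter.

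Cells known for TLR7 and TLR9 gave other patterns. The defining marker of plasmacytoid dendritic cells, Siglech, was at or below 0.775 FPKM in every library, with a mean of 0.120 FPKM in CRS+IMQ, 0.191 FPKM in IMQ, 0.0506 FPKM in CRS and 0.625 FPKM in control. The whole list of 7, whose sum of 725.2 to 1436 FPKM also counts genes of other cells, had 2 lower and 1 higher of 3 tested in CRS against control and 3 higher and 1 lower of 4 tested in CRS+IMQ against IMQ. Summed dendritic and Langerhans cell markers were 20.3 to 21.4 FPKM in CRS+IMQ, 30.8 to 41.7 FPKM in IMQ, 27.3 to 29.8 FPKM in CRS and 136.4 to 230.0 FPKM in control, and summed B cell markers were 39.7 to 40.7, 23.0 to 34.3, 13.95 to 14.2 and 107.7 to 117.5 FPKM in the same groups. Both sums thus stood below control in CRS+IMQ, where the macrophage sum overlapped control and the neutrophil sum was far above it. The part of these cells in the changes of the 10 genes was not tested.

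Set against the summed macrophage markers, the 10 genes fell into distinct patterns; this ratio was chosen after the values were seen and was not tested. Tlr7 was at 1.40, 1.90, 2.04 and 2.12 FPKM per 1000 FPKM of macrophage markers in CRS+IMQ, IMQ, CRS and control, and Tlr9 at 0.892, 0.781, 0.940 and 1.15, with overlapping libraries in each of the 4 comparisons. Tlr8 was at 0.870 in IMQ, 0.963 in CRS and 1.01 in control, which overlapped, and at 1.74 in CRS+IMQ, above every other library. Tlr2 and Cd14 were higher per macrophage marker in both groups given imiquimod: Tlr2 stood at 7.04 in CRS+IMQ, 6.41 in IMQ, 3.998 in CRS and 3.75 in control, and Cd14 at 21.9, 18.2, 9.60 and 8.71.

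The signalling genes had another pattern, with higher ratios in IMQ and CRS than in CRS+IMQ and control. The macrophage sum itself was 4.79-fold lower in IMQ and 5.29-fold lower in CRS than in control. A gene that fell less than the summed markers used as the base has a higher ratio there by construction. This pattern thus restates the smaller fold changes of these genes. Myd88 was at 18.2 FPKM per 1000 FPKM of macrophage markers in CRS+IMQ, 50.2 in IMQ, 41.9 in CRS and 14.8 in control, and Irak4 at 3.23, 7.85, 5.37 and 2.45. Tlr4 (1.28, 2.86, 3.31 and 1.07) and Irf5 (7.57, 23.9, 20.0 and 11.2) also had their higher ratios in the singly treated groups, and Unc93b1 was at 51.4, 66.3, 58.4 and 44.0. Several of these patterns depended on the markers used as the base. Per 1000 FPKM of 5 summed pan-leukocyte markers, Tlr9 was at 5.69 in CRS+IMQ, 4.65 in IMQ, 6.49 in CRS and 10.57 in control, with no overlap between CRS and control or between IMQ and control. On this base Tlr8 was at 11.07 in CRS+IMQ and 9.31 in control, and Tlr2 was at 37.99 in IMQ and 34.25 in control, each pair with overlapping libraries. Unc93b1 was at 403.4 in CRS and 402.3 in control, and the CRS and control libraries of Irf5 overlapped as well. Cd14 stayed higher in IMQ (108.0) than in control (79.5), and Myd88 and Irak4 stayed higher in IMQ and CRS than in CRS+IMQ and control, with no overlap.

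**Figure D3:**
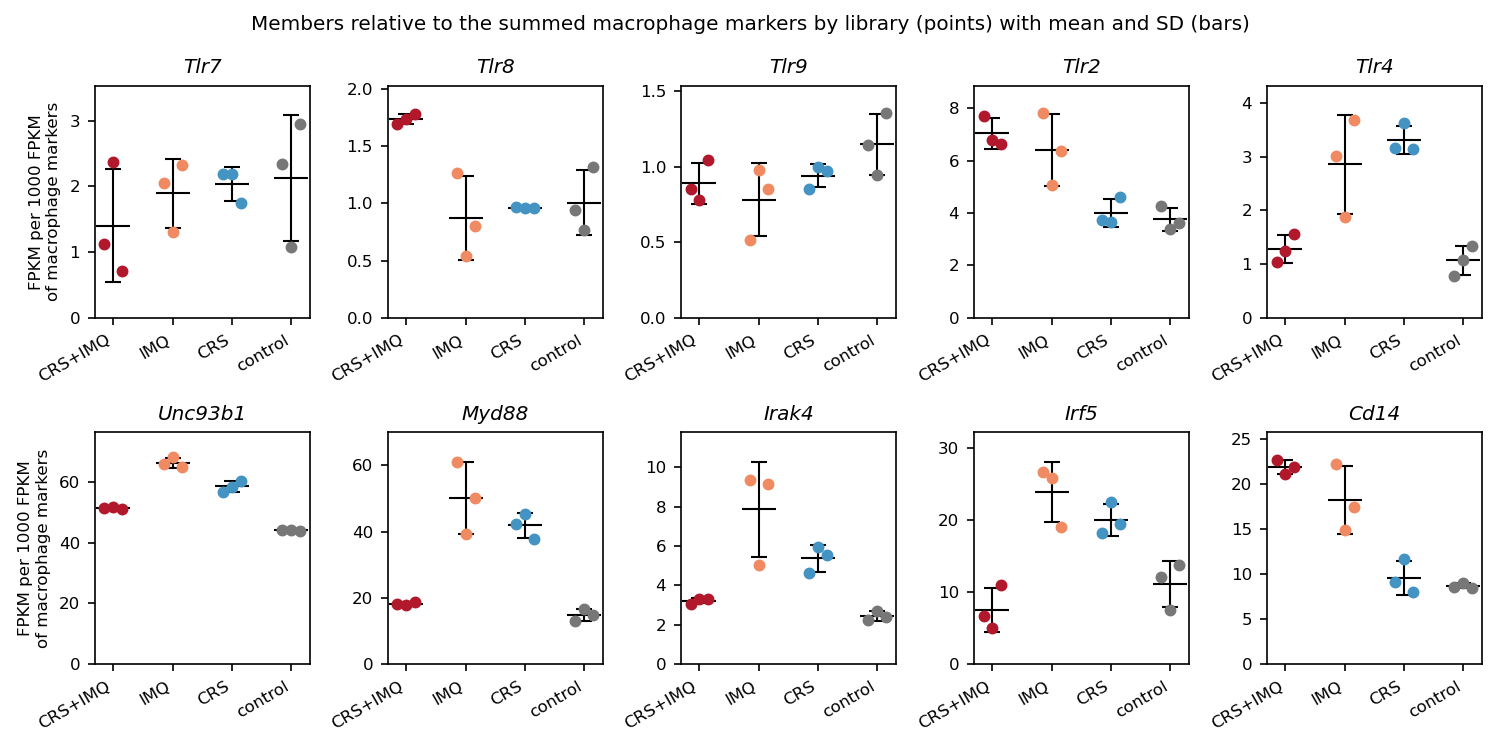
FPKM of each of the 10 genes per 1000 FPKM of the 12 summed macrophage markers (y axis, linear, from 0) in each library of CRS+IMQ, IMQ, CRS and control (x axis), with points for libraries and bars for mean and SD (n = 3 each). Tlr8 in CRS+IMQ (1.69 to 1.78) lies above all other libraries on this base, Tlr2 and Cd14 are higher in both imiquimod groups, and Myd88, Irak4, Tlr4 and Irf5 are higher in IMQ and CRS than in CRS+IMQ and control.

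The remaining genes of the pathway were taken from 8 lists that hold 114 genes. In CRS against control, 57 of 85 tested were lower and 6 higher (28.4 and 15.3 percent of all genes), with a median log2 change of -0.61 against -0.09 for all genes. Of the 85, 67 reached 1 FPKM in every library of both groups and 15 in control alone, so the count is partly set by the filter. With the 0.1 FPKM filter 64 of 108 were lower and 6 higher, where 21.7 percent of all genes were lower. With stressed groups averaged 16 of 85 were lower and 2 higher, where 4.34 percent of all genes were lower. Among receptor accessory and trafficking genes, 16 of 20 were lower and 0 higher: the proteases Ctsb (91.5 FPKM in CRS and 285.8 FPKM in control, log2 -1.63) and Ctsl (log2 -1.27), which cleave endosomal TLRs, the TLR4-like receptor Cd180 (log2 -1.51) and the TLR4 partner Ly96 (log2 -1.16), each with an adjusted p of 0.00277 or less in limma. The folding chaperone Cnpy3 (log2 -0.40, limma adjusted p = 0.00614) and the endolysosomal transporter Slc15a4 (log2 -0.53, adjusted p = 0.0120) fell less. Of 7 further receptors only Tlr5, the flagellin receptor, was tested, and it fell (log2 -0.61, limma adjusted p = 0.00242). Tlr5 reached 1 FPKM in control alone, and with the 0.1 FPKM filter 3 of 6 further receptors fell and 0 rose.

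Downstream of the receptors in CRS against control, 3 of 4 adaptors tested fell: Pik3ap1, which links TLRs to PI3 kinase (log2 -1.68, limma adjusted p = 0.000272), Ticam2 (log2 -0.89) and Ticam1 (log2 -0.62). Of the 4, 2 reached 1 FPKM in every library of control alone. With the 0.1 FPKM filter 3 of 5 adaptors fell and 0 rose, where 21.7 percent of all genes were lower. Of 19 kinases and ubiquitin ligases 10 fell and 1 rose (28.4 and 15.3 percent of all genes), with Ikbke at a log2 change of -0.94, the ubiquitin ligase Traf6 at -0.71 and the kinase Syk at -0.66. Of 15 transcription factors 10 fell and 2 rose (28.4 and 15.3 percent of all genes). Irf7, a driver of type I interferon genes, fell to 4.05 FPKM in CRS, against 13.5 FPKM in control (log2 -1.52, limma adjusted p = 0.00032). The 2 that rose were Atf3, a stress-induced repressor (19.7 FPKM in CRS and 4.84 FPKM in control, log2 1.82), and the immediate early gene Fos (18.4 FPKM in CRS and 6.05 FPKM in control, log2 1.47).

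Negative regulators had 9 lower and 2 higher of 14 tested in CRS against control (28.4 and 15.3 percent of all genes). Trim30a (log2 -1.72), the phosphatase Ptpn6 (log2 -1.59) and Tollip (log2 -0.84) fell, and the IRAK inhibitor Irak3 did not pass (log2 -0.30, limma adjusted p = 0.374). Among induced cytokines and targets 8 of 23 were tested and 6 were lower, with Il1a (log2 -2.74), the costimulatory gene Cd86 (log2 -1.94) and the adhesion gene Icam1 (log2 -0.65). Of the 8, 6 reached 1 FPKM in every library of control alone, so this count is partly set by the filter. With the 0.1 FPKM filter 10 of 19 were lower and 0 higher, where 21.7 percent of all genes were lower. Tnf did not pass (0.623 FPKM in CRS and 1.28 FPKM in control, limma adjusted p = 0.0551). Of the imiquimod targets outside the TLRs, Adora2b (log2 -1.86) and Adora3 (log2 -0.91) fell and Adora1 rose (log2 1.26, limma adjusted p = 0.0350). With stressed groups averaged, the calls of Ly96, Cnpy3, Slc15a4, Tlr5, Ticam1, Ticam2, Ikbke, Traf6, Syk, Tollip, Icam1, Adora3 and Adora1 were lost (limma adjusted p from 0.0700 for Adora3 to 0.280 for Adora1), and those of the other genes named in this comparison were kept.

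In CRS+IMQ against IMQ, 58 of 99 tested were higher and 6 lower (18.7 and 18.2 percent of all genes), with a median log2 change of 0.60 against -0.07 for all genes. Of the 99, 67 reached 1 FPKM in every library of both groups and 30 in CRS+IMQ alone, so the one-sided count is partly set by the filter. With the 0.1 FPKM filter 58 of 110 were higher and 6 lower, where 14.8 percent of all genes were higher. In the averaged fit 33 of 99 were higher and 0 lower, where 4.80 percent of all genes were higher. The 4 further receptors tested, which reached 1 FPKM through CRS+IMQ alone, rose, and 4 of 6 rose with the 0.1 FPKM filter: Tlr13, a mouse sensor of bacterial ribosomal RNA (4.83 FPKM in CRS+IMQ and 0.257 FPKM in IMQ, log2 2.21), the TLR2 partners Tlr1 (5.96 FPKM in CRS+IMQ and 0.689 FPKM in IMQ, log2 2.05) and Tlr6 (log2 1.16), and Tlr5 (log2 0.98). Of 20 accessory and trafficking genes 13 rose, those with the smallest p being the proteases Lgmn (164.6 FPKM in CRS+IMQ and 32.1 FPKM in IMQ, log2 2.32), Ctss (187.2 FPKM in CRS+IMQ and 19.9 FPKM in IMQ, log2 3.18) and Ctsb (log2 1.75). Ly96 also rose (log2 0.96, limma adjusted p = 0.00538), while Slc15a4 (log2 0.25, adjusted p = 0.0548) and Cnpy3 (log2 0.39, adjusted p = 0.172) did not pass.

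The signalling lists were split in CRS+IMQ against IMQ. All 4 adaptors tested rose, with Pik3ap1 at a log2 change of 2.63. Of the 4, 2 reached 1 FPKM in every library of CRS+IMQ alone, so this count is partly set by the filter. With the 0.1 FPKM filter 4 of 5 adaptors rose and 0 fell, where 14.8 percent of all genes were higher. Of 19 kinases and ubiquitin ligases, however, 5 rose, 1 fell and 13 did not pass, where 18.7 percent of all genes rose and 18.2 percent fell. The rises in this list were thus near the share of all genes. The 5 included Btk (log2 1.42), Syk (log2 1.499) and Ikbke (log2 0.45). Of 15 transcription factors 6 rose and 3 fell (18.7 and 18.2 percent of all genes). Spi1, which encodes the myeloid factor PU.1, rose to 28.4 FPKM in CRS+IMQ, against 4.27 FPKM in IMQ (log2 2.49, limma adjusted p = 6.93e-05), Irf8 rose (log2 1.19) and Irf7 rose less (log2 0.39, adjusted p = 0.00864). Fos fell (34.6 FPKM in CRS+IMQ and 65.4 FPKM in IMQ, log2 -0.90).

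Targets of the pathway and its inhibitors rose together in CRS+IMQ against IMQ. Of 17 induced cytokines and targets tested 15 were higher and 0 lower, but 13 of the 17 reached 1 FPKM in every library of CRS+IMQ alone; with the 0.1 FPKM filter 16 of 21 were higher and 0 lower. Among them were Il1b at 23.8 ± 1.09 FPKM in CRS+IMQ and 0.782 ± 0.432 FPKM in IMQ (SD, n = 3 each, log2 3.83, limma adjusted p = 4.49e-05) and the neutrophil attractant Cxcl2 at 11.2 FPKM in CRS+IMQ and 0.184 FPKM in IMQ (log2 3.38). Ptgs2 (log2 1.73), Tnf (log2 1.17) and Il6 (log2 1.01) also rose. Of 16 negative regulators 10 rose and 2 fell (18.7 and 18.2 percent of all genes). The IL-33 receptor Il1rl1 (log2 2.54), Acod1, which makes itaconate (log2 1.72), Ptpn6 (log2 1.85) and Irak3 (log2 0.71) rose. Of the imiquimod targets outside the TLRs, Nlrp3 rose (log2 0.93, limma adjusted p = 0.000837). The averaged fit lost the calls of Ly96, Syk, Ikbke, Irf8, Irf7, Fos, Tnf and Irak3 (limma adjusted p from 0.0578 for Fos to 0.238 for Irf7) and kept those of the other genes named in this comparison. The neutrophil markers given above moved with these genes, and their part in these changes was not tested.

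In IMQ against control, 34 of 87 tested were lower and 4 higher (13.5 and 6.11 percent of all genes), with a median log2 change of -0.47 against 0.02 for all genes. Of the 87, 16 reached 1 FPKM in every library of control alone, and with the 0.1 FPKM filter 39 of 108 were lower and 4 higher, where 10.2 percent of all genes were lower. Ctss (19.9 FPKM in IMQ and 124.6 FPKM in control, log2 -2.59), Cd180 (log2 -1.67) and Slc15a3 (log2 -1.29) fell, as did the adaptors Pik3ap1 (log2 -1.54), Ticam2 and Ticam1. Irf7 fell to 2.995 FPKM in IMQ, against 13.5 FPKM in control (log2 -1.86, limma adjusted p = 0.000621), and Cd86, Il1a and Cd40 fell. The higher genes included Fos (65.4 FPKM in IMQ and 6.05 FPKM in control, log2 3.24), the phosphatase Dusp1 (47.6 FPKM in IMQ and 14.3 FPKM in control, log2 1.67) and Atf3 (log2 0.95). Tnf (limma adjusted p = 0.0605), Traf6 (0.291), Tlr3 (0.152) and Irak3 (0.937) did not pass.

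In CRS+IMQ against CRS, 79 of 99 tested were higher and 7 lower (35.0 and 25.9 percent of all genes), with a median log2 change of 0.88 against 0.06 for all genes. Of the 99, 29 reached 1 FPKM in every library of CRS+IMQ alone. With the 0.1 FPKM filter 82 of 110 were higher and 7 lower, where 27.0 percent of all genes were higher, and with stressed groups averaged 37 of 99 were higher and 1 lower, where 7.03 percent were higher. The 17 induced cytokines and targets tested rose, 15 of which reached 1 FPKM through CRS+IMQ alone, and 20 of 21 rose with the 0.1 FPKM filter. They included the scavenger receptor Marco at 22.7 FPKM in CRS+IMQ and 0.0344 FPKM in CRS (log2 4.52) and Il1b at a log2 change of 4.32. Spi1 (log2 2.76), Nfkbiz (log2 1.51) and the endolysosomal nuclease Pld4 (log2 2.15) rose. Irf7 did not pass, at 4.23 FPKM in CRS+IMQ and 4.05 FPKM in CRS (log2 0.05, limma adjusted p = 0.538), and Atf3 (log2 -1.22) and Adora1 (log2 -1.29) fell. The calls of Nfkbiz (limma adjusted p = 0.0764) and Adora1 (0.406) were lost with stressed groups averaged. For the difference between the CRS effect with and without imiquimod, 76 of 104 tested were positive and 6 negative, where 28.1 and 21.2 percent of all genes were (median log2 1.21 against 0.04 for all genes), with Ctss (4.93), Spi1 (4.47), Il1b (4.39) and Pik3ap1 (4.31) among the positive ones and Fos (-2.36) and Atf3 (-2.18) among the negative ones.

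**Figure D4:**
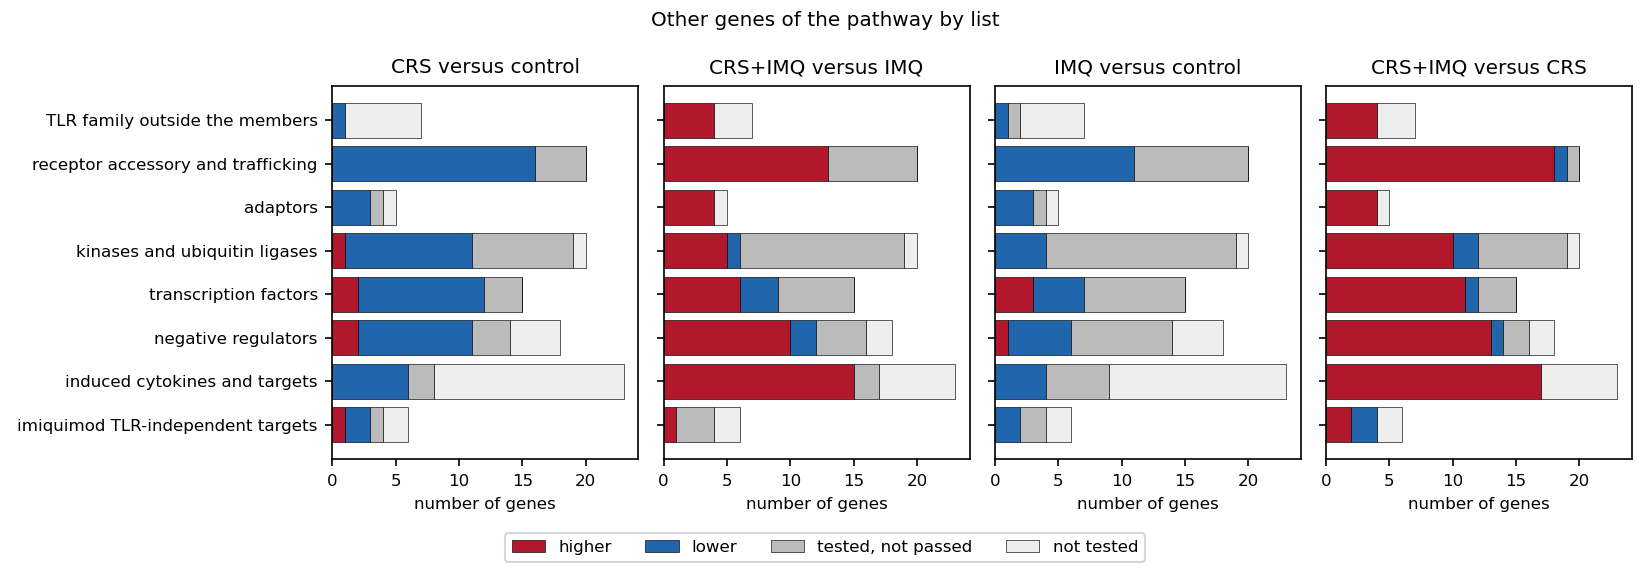
Number of genes (x axis) of each of the 8 pathway lists (y axis) that were higher (red), lower (blue), tested without passing (grey) or not tested (light grey) in 4 panels (CRS versus control, CRS+IMQ versus IMQ, IMQ versus control, then CRS+IMQ versus CRS). Lower genes prevail in CRS versus control and IMQ versus control (57 and 34 of the 114 genes) and higher genes in the other 2 panels (58 and 79).

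The genes whose levels were most like those of Tlr7 over the 12 libraries, among 12274 genes with a mean of at least 1 FPKM, were Abcb1b (Pearson r = 0.939), Il18bp (0.928), Slc23a2 (0.924), Pitpna (0.923) and Erap1 (0.917). Tlr9 correlated with Tlr7 at 0.858 and Tlr8 at 0.778. Those most like Tlr2 were Clcn5 (0.996), Klhl6 (0.993), Aoah (0.991), Clec4n (0.991) and Wfdc17 (0.990), and of the other 9 genes Cd14 (0.987), Myd88 (0.985) and Tlr8 (0.975) came closest. The libraries fall into high and low groups, so these coefficients largely restate the group differences, and they are given as a description.

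The authors' deposited table gave fold changes and q-values for the 2 stress comparisons. For CRS against control it listed Tlr4 at a q-value of 0.126 and not significant, and Myd88 at a q-value of 0.00184 and a fold of 0.541, also marked not significant. For CRS+IMQ against IMQ the authors' deposited table marked Irf5 not significant at a fold of 1.83 and a q-value of 0.00754. The authors' deposited table marked the other genes of the 10 significant in each comparison, among them Tlr8 at a fold of 12.3 and Cd14 at 7.17 in CRS+IMQ against IMQ.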

How the data were processed

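Per the labels' protocols, TRIzol was used to extract skin RNA and a NovaSeq instrument to sequence it. Of what the authors ran, the submitters' processing notes name StringTie, edgeR and limma and the build mm10, without roles. No source used here gives the aligner. The deposited tables hold the authors' FPKM per library, with a floor of 0.0001 that was set to 0 here, and, per the file headers, 4 columns per stress comparison that give the authors' result: a fold (ratio), log2 of that fold, p-value, q-value. Counts were not used here, and 0 FPKM columns were left unmapped.

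Values of log2(FPKM + 1), which understate changes of low genes, went into limma 3.58.1 (R 4.3.3, statmod 1.5.0; mean-variance trend, robust) on the 6 libraries of a comparison, or on all 12 for the difference of the 2 CRS effects. Genes with at least 1 FPKM in 3 libraries were tested, with two-sided p-values, Benjamini-Hochberg adjustment over all of them, and calls at an adjusted p under 0.05. They measure the spread between these samples, which may be technical; the smallest exact p for 3 against 3 is 0.1, so calls rest on limma's variance model. The fits were tested on simulated data. The 10 genes and the lists were chosen with earlier results of these data known. Of each pathway list, up to 3 genes with the smallest p past the threshold were named, with 13 further genes always reported. Alternatives were other scalings, filters and pseudocounts, a replicate block, fits over 12 libraries, averaged stressed groups and each library left out.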

Additional observations from a re-analysis of the deposited data

Results flagged for a closer look

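For each of the 10 genes, the CRS effect with imiquimod (CRS+IMQ against IMQ) differed from the CRS effect without it (CRS against control) by the test of that difference in limma, at an adjusted p under 0.05 over all genes. On the log2 scale of FPKM + 1 the difference was 2.23 for Tlr7, 2.42 for Tlr8 and 1.92 for Tlr9. It was 3.67 for Tlr2, 1.12 for Tlr4 and 4.45 for Cd14. It was 4.03 for Unc93b1, 1.88 for Myd88, 1.82 for Irak4 and 2.08 for Irf5. The macrophage markers moved the same way (12 of 12 lower in CRS than in control, 12 of 12 higher in CRS+IMQ than in IMQ), and their part in these differences was not tested.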

How the results depend on the processing

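No change of the 10 genes reversed its sign under any alternative run. Over all settings, comparisons and genes, 626 values kept their direction and their side of the threshold, 41 lost the call and 4 gained one, 17 of the losses in Tlr7. The cause was not tested. With each stressed group averaged to 1 sample, 2 of the 10 genes passed in CRS against control and 6 in CRS+IMQ against CRS, and the calls over all genes fell to 793 in CRS against control, 820 in CRS+IMQ against IMQ, 1194 in CRS+IMQ against CRS and 2417 for the difference of the CRS effects, against 6086, 5162, 8536 and 7325 in the main fits. Fitting all 12 libraries together gave 10 of the 10 genes and 5312 genes in all for IMQ against control, against 6 and 2735. Leaving out 1 library in turn gave 6 to 9 of the 10 genes and 3872 to 6581 of all genes in CRS against control, 5 to 8 and 2872 to 5909 in CRS+IMQ against IMQ, 3 to 4 and 1084 to 2660 in IMQ against control, 6 to 9 and 7150 to 7651 in CRS+IMQ against CRS, and 10 and 6447 to 7857 for the difference. Where the library left out was of the higher group, fewer of the 10 genes reached the filter (6 tested), since it still asked for 3 libraries. Quantile normalization set the median log2 difference of the CRS effects over all genes at -0.13, where all 10 genes remained positive and past the threshold; the share of all calls that were higher was 43.2 percent there against 57 percent, 43.2 against 57.5 percent in CRS+IMQ against CRS, 44.1 against 31.2 percent in IMQ against control and 56.2 (45.1 with median-ratio scaling) against 35.0 percent in CRS against control.

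The labels do not say whether the replicate numbers pair the samples. Deviations of same-numbered libraries correlated at -0.113 to 0.0252, so no likeness by number was seen. With 3 libraries per group these correlations cannot decide whether the samples are paired. With the replicate number as a block, 8 of the 10 genes passed in CRS against control, 8 in CRS+IMQ against IMQ, 5 in IMQ against control, 10 in CRS+IMQ against CRS and 10 for the difference, and over all genes 4811, 3974, 2049, 7882 and 7062. At the estimated depth, the low groups held 7.01 to 22.5 fragments of Tlr9 per library, which limits the precision of its folds.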
